A study of Mus musculus with 9 samples.

Results

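The 9 genes described here encode the receptors of the Hedgehog pathway and the factors that carry its signal to DNA. They were taken by symbol from the deposited table of 24503 genes, and all 9 were found in it. They are the co-receptors Boc and Cdon, the receptor Ptch1, the ligand-binding protein Hhip, the transducer Smo, the inhibitor Sufu and the transcription factors Gli1, Gli2 and Gli3. Each passed the filter on low counts that left 13560 genes for testing.

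RNA was sequenced from primary neural stem cells of the mouse cortex at E13.5, expanded first as neurospheres and then on laminin (5 µg/mL) with FGF (10 ng/mL) and EGF (20 ng/mL). A first group of cells carried the hairpin shRad21_1 and a second the hairpin shRad21_2, both aimed at Rad21, which encodes the kleisin subunit of the cohesin ring. The control group carried the non-targeting hairpin shNT. All 3 groups were wild type with both Phf2 alleles floxed (Phf2flox/flox), all were infected with virus, and each had 3 libraries, 9 in all. No Hedgehog ligand or agonist is named in the labels, and neither the time after infection nor the sex or strain of the animals is given in the sources used here. The labels do not say whether the libraries of a group came from separate cultures, so the p-values cover differences among these libraries, and that spread may be technical.

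In the Hedgehog pathway a secreted ligand binds Ptch1 together with a co-receptor and so lifts the block that Ptch1 keeps on Smo. Active Smo gathers in the primary cilium, where it stops the kinase PKA from steering Gli2 and Gli3 toward their shortened repressor forms. Gli2 is chiefly an activator and Gli3 chiefly a repressor, Sufu holds both back, and Gli1, Ptch1 and Hhip are themselves switched on by the pathway. In the developing telencephalon Hedgehog signalling favours ventral fates, and Gli3 repressor is needed for the dorsal part from which the cortex forms. The counts measure mRNA per gene and do not tell full-length Gli proteins from repressor forms.

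Total counts ran from 34780003 to 46644607 per library. Rad21 stood at 180 ± 6.92 CPM with shRad21_1 and 85.3 ± 5.19 CPM with shRad21_2, against 479 ± 45.0 CPM with shNT (SD, n = 3 each), where CPM are counts per 1000000 of a library total scaled with TMM. All 10 markers of neural stem cells were above 1 CPM in each group, and with shRad21_2 4 of them fell and 2 rose, against 22.5% lower and 21.1% higher among all genes tested. Slc1a3, a glutamate transporter of radial glia, fell to 585 ± 32.1 CPM with shRad21_2, against 1129 ± 20.0 CPM with shNT, and Nes, the nestin gene, rose to 2490 ± 188 CPM, against 1218 ± 93.8 CPM. Their part in the values of the 9 genes was not tested. Microglial markers summed to between 0.285 and 3.16 CPM and mesenchymal markers to between 0.293 and 1.13 CPM in any library. Along a first principal component with 60.2% of the variance, shRad21_1 replicate 1 lay at 12.6, away from replicates 2 and 3 of its group at -20.3 and -21.2, with shRad21_2 libraries between 50.8 and 58.3 and shNT libraries between -48.3 and -39.8. Replicates 2 and 3 were close to each other in shRad21_1 and in shNT, with a chi-square per gene of 2.18 and 3.18, against 23.0 to 69.6 for other pairs within a group. That is more than sampling noise, but it does not tell separate cultures from separate preparations of the same culture. They were kept as separate libraries, and results with these close pairs summed are given beside the main ones.

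Gli3 was higher with both hairpins, Gli2 and Smo were higher with shRad21_2, and the other 6 genes were not called against shNT with either hairpin. A gene was called where its p in edgeR's quasi-likelihood test, adjusted by Benjamini-Hochberg over all genes tested, was under 0.05. With shRad21_1, 1 of the 9 genes was called, against 9.82% of all genes tested. With shRad21_2, 3 of the 9 were called, against 43.6% of all genes, so the share is no higher than the background. All 3 were higher, as were 21.1% of all genes, while 22.5% were lower. Between the hairpins, 2 of the 9 were called, against 26.3% of all genes. Libraries of the groups compared did not overlap for 3 of the 9 genes with shRad21_1, 6 with shRad21_2 and 3 between the hairpins, against 40.2%, 55.9% and 39.2% of all genes. The median log2 fold change of the 9 genes was 0.13 with shRad21_1, 0.14 with shRad21_2 and 0.02 for shRad21_2 over shRad21_1, against 0.01, 0.01 and -0.00 for all genes tested.

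**Figure D1:**
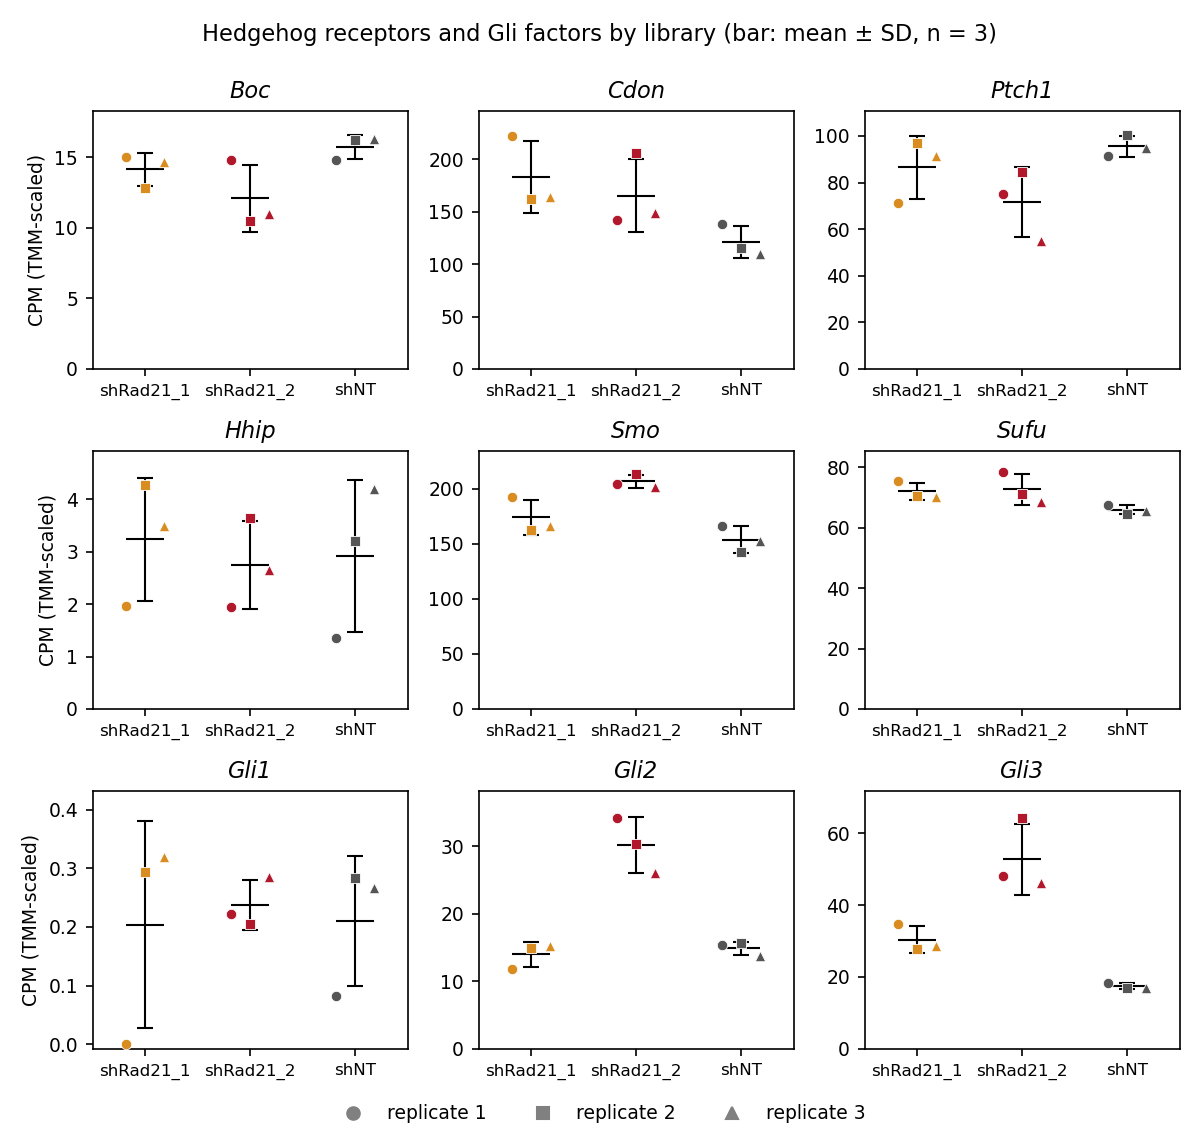
Level of each of the 9 genes in every library, in TMM-scaled CPM on a linear axis that starts at 0, for shRad21_1, shRad21_2 and shNT; symbols mark the replicate and bars the mean ± SD (n = 3). Gli3 lies at 27.9 CPM or more in all 6 Rad21 hairpin libraries and at 18.3 CPM or less with shNT, and Gli2 lies at 26.0 CPM or more with shRad21_2 and at 15.6 CPM or less in the other libraries.

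Gli3, the main repressor of the pathway in the dorsal telencephalon, was ordered shRad21_2, shRad21_1, shNT from high to low. It lies on chromosome 13 from 15463235 to 15730026 on the plus strand of GRCm38, spans 267 kb and is annotated as protein coding (ENSMUSG00000021318.15). It had 34.6, 27.9 and 28.5 CPM in replicates 1, 2 and 3 of shRad21_1 and 48.0, 64.1 and 46.1 CPM in those of shRad21_2, against 18.3, 16.9 and 16.9 CPM in those of shNT. No library of any group overlapped those of another. Means were 30.3 ± 3.73 CPM with shRad21_1 and 52.7 ± 9.89 CPM with shRad21_2, against 17.4 ± 0.841 CPM with shNT (SD, n = 3 each). Gli3 rose 1.75-fold with shRad21_1 (log2 fold change 0.80, SE 0.14, edgeR adjusted p = 0.00754). It rose 3.04-fold with shRad21_2 (1.60, SE 0.14, adjusted p = 2.82e-05), and was 1.74-fold higher with shRad21_2 than with shRad21_1 (0.80, SE 0.14, adjusted p = 0.00313). Without shRad21_1 replicate 1, the highest library of its group, the value for shRad21_1 was 0.70 (edgeR adjusted p = 0.00863). With the close pairs of libraries summed, the call for shRad21_1 was lost at 0.83 (adjusted p = 0.0791). The adjusted p lay between 6.06e-06 and 0.0791 in 18 alternatives.

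Gli2, the main activator, separated the hairpins from each other. The gene lies on chromosome 1 from 118834132 to 119053619 on the minus strand and spans 219 kb (ENSMUSG00000048402.14). It had 11.8, 15.0 and 15.2 CPM with shRad21_1 and 34.2, 30.3 and 26.0 CPM with shRad21_2, against 15.3, 15.6 and 13.8 CPM with shNT. The shRad21_2 libraries lay above all others, while those of shRad21_1 and shNT overlapped. Gli2 averaged 30.2 ± 4.10 CPM with shRad21_2 and 14.9 ± 0.972 CPM with shNT, and rose 2.02-fold (log2 fold change 1.02, SE 0.13, edgeR adjusted p = 2.69e-04). With shRad21_1 its mean was 14.0 ± 1.88 CPM and its value was -0.09 (SE 0.13, 95% interval -0.39 to 0.21, adjusted p = 0.718). The difference of shRad21_2 over shRad21_1 was 1.11 (SE 0.13, adjusted p = 4.80e-04), and its call held in all 18 alternatives.

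Gli1, the factor whose mRNA is used as a readout of Hedgehog activity, was close to the limit of detection. It lies on chromosome 10 from 127329882 to 127341974 on the minus strand (ENSMUSG00000025407.7). Its counts were 0, 11 and 12 with shRad21_1 and 10, 7 and 10 with shRad21_2, against 3, 12 and 12 with shNT. The groups overlapped, and sums over 3 libraries were 23, 27 and 27 counts. The library at 0, shRad21_1 replicate 1, has a floor of 3 counts, or 0.0816 CPM of its total. The 95% interval of the log2 fold change ran from -1.81 to 1.68 with shRad21_1 and from -1.58 to 1.86 with shRad21_2, so a change of 2-fold in either direction was not detectable at this depth.

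**Figure D2:**
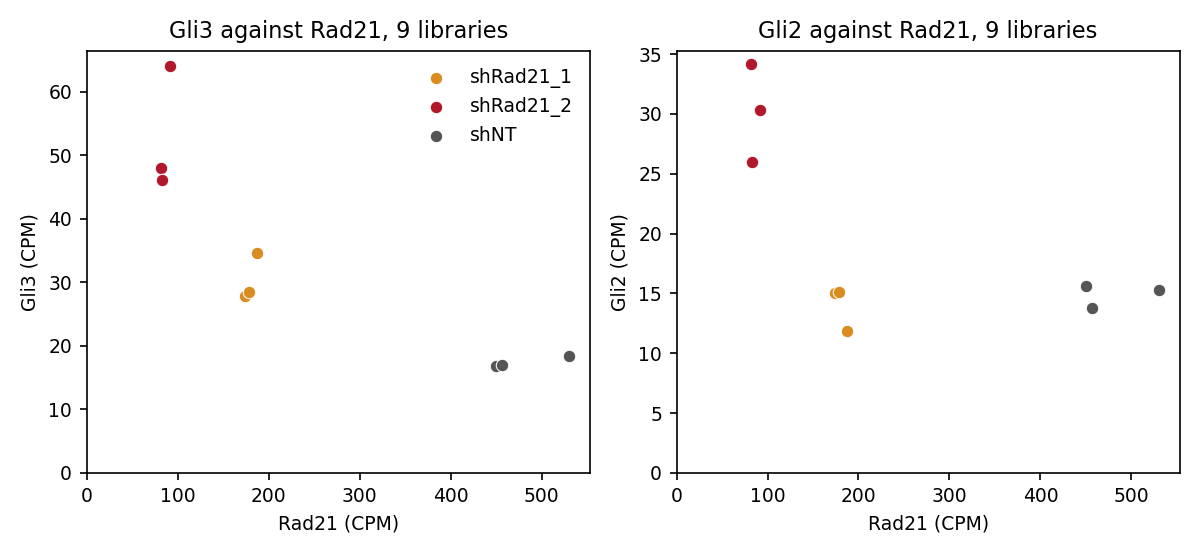
Gli3 (left) and Gli2 (right) against Rad21 in the 9 libraries, all in TMM-scaled CPM on linear axes from 0; colours mark the groups. Gli3 is highest with shRad21_2, lower with shRad21_1 and lowest with shNT, whereas Gli2 with shRad21_1 (11.8 to 15.2 CPM) lies among or below the shNT libraries (13.8 to 15.6 CPM).

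The start regions of Gli3 and Gli2 are shown because both transcripts were raised with shRad21_2. RefSeq gave a window of 250 bases before and 50 bases after the start for 7 of the 9 genes on GRCm38.p6, all but Boc and Gli1. The Gli3 window is chr13:15463473-15463772 on the plus strand and the Gli2 window chr1:119053570-119053869 on the minus strand. Capitals mark exact matches to the GC box GGGGCGGGG, a binding motif of SP1, and both sequences read 5′ to 3′ along the gene.
Gli3: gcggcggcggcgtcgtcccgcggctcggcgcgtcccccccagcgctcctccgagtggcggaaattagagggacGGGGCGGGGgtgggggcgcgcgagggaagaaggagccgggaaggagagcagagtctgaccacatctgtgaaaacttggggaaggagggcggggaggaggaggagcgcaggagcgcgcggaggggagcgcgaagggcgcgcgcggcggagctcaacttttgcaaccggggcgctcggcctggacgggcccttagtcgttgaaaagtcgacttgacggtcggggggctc
Gli2: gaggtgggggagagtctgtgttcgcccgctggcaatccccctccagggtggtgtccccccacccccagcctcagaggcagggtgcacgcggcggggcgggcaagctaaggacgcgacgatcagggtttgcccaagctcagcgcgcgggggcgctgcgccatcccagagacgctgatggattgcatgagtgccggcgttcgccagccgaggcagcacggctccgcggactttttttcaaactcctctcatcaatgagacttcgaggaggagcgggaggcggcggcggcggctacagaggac
The windows have a GC content of 71.0% for Gli3 and 67.3% for Gli2, against a median of 52.7% over 32851 windows in the table. Their ratio of observed to expected CpG was 1.12 and 0.83, against a median of 0.384. Of the 7 windows, 6 lay above the median GC content and 6 above the median CpG ratio. The exact GC box began 177 bases before the start of Gli3 and did not occur in the Gli2 window. It also occurred in the windows of Ptch1, Hhip and Sufu, which were not called, and 11.4% of all windows hold it on either strand. Only exact matches were sought for either motif. The Gli2 window holds the near match ggggcgggc, and the Gli3 window also holds agggcgggg. The GLI motif GACCACCCA, found in 0.253% of all windows on either strand, occurred in none of the 7 windows. The windows follow RefSeq starts, which can differ from the GENCODE positions given for the genes. Those of Cdon (chr9:35451826-35452125) and Ptch1 (chr13:63565686-63565985) lie inside the GENCODE span, so other starts of these genes were not searched.

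Smo, the transducer of the signal, was moderately higher with shRad21_2. The gene lies on chromosome 6 from 29735503 to 29761365 on the plus strand (ENSMUSG00000001761.7). It had 192, 163 and 166 CPM with shRad21_1 and 204, 214 and 202 CPM with shRad21_2, against 166, 143 and 152 CPM with shNT. The shRad21_2 libraries lay above all others, and those of shRad21_1 overlapped with shNT. Smo rose 1.34-fold with shRad21_2 (206 ± 6.22 CPM against 154 ± 11.996 CPM with shNT, log2 fold change 0.43, SE 0.09, edgeR adjusted p = 0.00326), and this call held in all 18 alternatives. Its value with shRad21_1 was 0.18 (SE 0.09, adjusted p = 0.226). For shRad21_2 over shRad21_1 the value was 0.25 (SE 0.09, adjusted p = 0.0580) and became a call without shRad21_1 replicate 1, at 0.33 (adjusted p = 0.0123, with 0.0123 to 0.259 across the alternatives).

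Sufu, which binds Gli proteins and holds them inactive, differed little between the groups. It lies on chromosome 19 from 46396896 to 46488804 on the plus strand (ENSMUSG00000025231.17). Its levels were 75.4, 70.6 and 70.1 CPM with shRad21_1 and 78.5, 71.3 and 68.6 CPM with shRad21_2, against 67.6, 64.6 and 65.5 CPM with shNT. All 6 Rad21 hairpin libraries lay above the 3 shNT libraries. The log2 fold change was 0.13 with shRad21_1 (95% interval -0.04 to 0.29, edgeR adjusted p = 0.306) and 0.14 with shRad21_2 (-0.02 to 0.31, adjusted p = 0.140).

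Ptch1, the receptor that keeps Smo inactive and is itself induced by the pathway, lay lower with shRad21_2 without passing the threshold. The gene lies on chromosome 13 from 63508328 to 63573598 on the minus strand (ENSMUSG00000021466.12). It had 71.4, 97.1 and 91.4 CPM with shRad21_1 and 75.1, 84.6 and 55.1 CPM with shRad21_2, against 91.2, 100.4 and 95.0 CPM with shNT. The shRad21_2 libraries lay below all shNT libraries, and those of shRad21_1 overlapped with shNT. The log2 fold change was -0.42 with shRad21_2 (SE 0.16, 95% interval -0.76 to -0.07, edgeR adjusted p = 0.0521) and -0.14 with shRad21_1 (SE 0.15, adjusted p = 0.614). The value for shRad21_2 passed the threshold in 8 of 18 alternatives, among them without shRad21_2 replicate 2 (-0.55, adjusted p = 0.0246) and without shRad21_1 replicate 1 (-0.41, adjusted p = 0.0227). Without shRad21_2 replicate 3, the lowest library, the value was -0.26 (adjusted p = 0.147), the highest p of the alternatives.

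Hhip, which binds ligand at the cell surface and is likewise induced by the pathway, was low and variable in every group. It lies on chromosome 8 from 79965851 to 80058006 on the minus strand (ENSMUSG00000064325.4). It had 1.96, 4.27 and 3.48 CPM with shRad21_1 and 1.95, 3.64 and 2.65 CPM with shRad21_2, against 1.35, 3.21 and 4.19 CPM with shNT. All 3 groups overlapped. The 95% interval of the log2 fold change ran from -0.78 to 1.07 with shRad21_1 and from -1.03 to 0.83 with shRad21_2.

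The co-receptors, which bind ligand beside Ptch1, went opposite ways in value, and neither passed the threshold. Cdon lies on chromosome 9 from 35421128 to 35507652 on the plus strand (ENSMUSG00000038119.15) and Boc on chromosome 16 from 44485049 to 44558897 on the minus strand (ENSMUSG00000022687.12). Cdon had 223, 162 and 164 CPM with shRad21_1 and 142, 206 and 149 CPM with shRad21_2, against 138, 116 and 110 CPM with shNT. All 6 Rad21 hairpin libraries lay above the shNT libraries. Its log2 fold change was 0.59 with shRad21_1 (SE 0.17, edgeR adjusted p = 0.0533) and 0.45 with shRad21_2 (SE 0.17, adjusted p = 0.0530). Boc had 15.0, 12.8 and 14.7 CPM with shRad21_1 and 14.8, 10.5 and 11.0 CPM with shRad21_2, against 14.8, 16.2 and 16.3 CPM with shNT. The groups overlapped, shRad21_2 replicate 1 reaching the lowest shNT library. Boc had a value of -0.38 with shRad21_2 (SE 0.14, adjusted p = 0.0519) and of -0.16 with shRad21_1 (SE 0.14, adjusted p = 0.532).

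The calls of the co-receptors with a single library left out moved across the threshold. Cdon with shRad21_1 became a call without shRad21_2 replicate 2 (0.59, edgeR adjusted p = 0.0302), and the 18 alternatives spanned 0.00864 to 0.210. Cdon with shRad21_2 became a call without shNT replicate 1 (0.55, adjusted p = 0.0451), shRad21_1 replicate 1 (0.45, adjusted p = 0.0195) or shRad21_2 replicate 1 (0.55, adjusted p = 0.0392). Without shRad21_2 replicate 2, the highest library of its group, the value was 0.26 (adjusted p = 0.193), the highest p of the alternatives. Boc with shRad21_2 became a call without shRad21_1 replicate 1 (-0.38, adjusted p = 0.0412) or shRad21_2 replicate 1 (-0.55, adjusted p = 0.00563), and the alternatives spanned 0.00563 to 0.161.

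**Figure D3:**
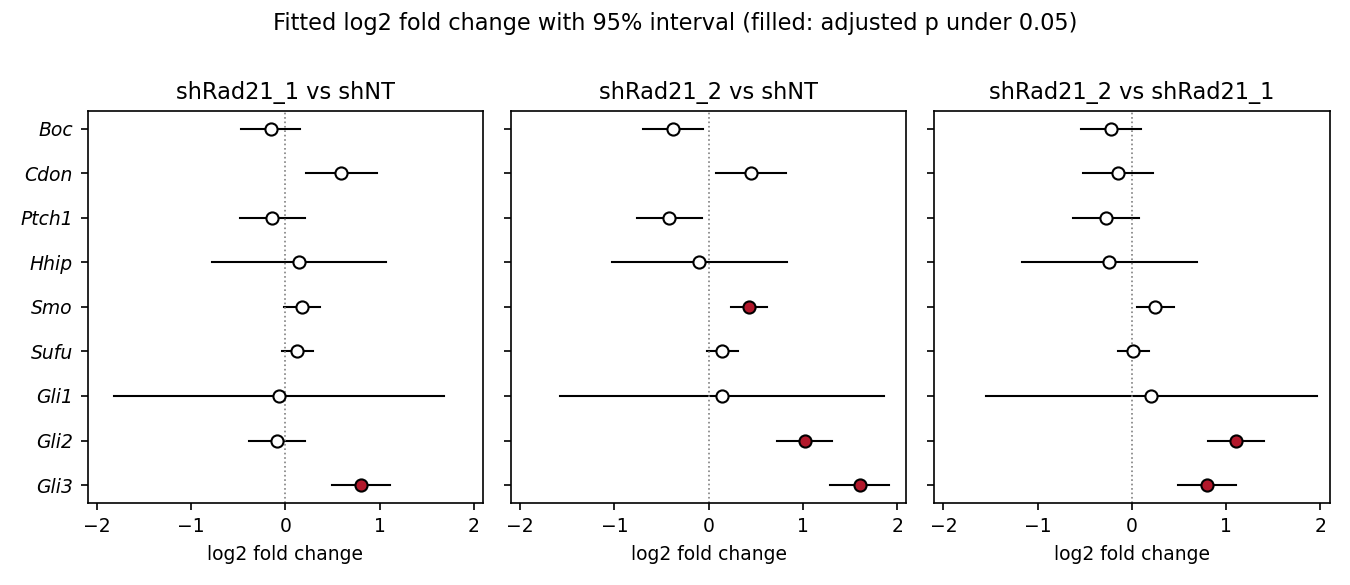
Fitted log2 fold change (x axis) of the 9 genes for shRad21_1 and shRad21_2 over shNT and for shRad21_2 over shRad21_1; lines are 95% intervals and filled points are genes with an adjusted p under 0.05. Gli3 is filled in all 3 panels, at 0.80, 1.60 and 0.80, and the intervals of Gli1 are the widest of the 9.

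Levels were compared between the genes per kilobase of annotated exon, from GENCODE M21 on GRCm38. Smo was the highest of the 9 in each group, at 30.9 ± 2.90 CPM per kb with shRad21_1 and 36.7 ± 1.11 with shRad21_2, against 27.3 ± 2.13 with shNT (SD, n = 3). Cdon came next, at 23.7 ± 4.45 with shRad21_1 and 21.5 ± 4.56 with shRad21_2, against 15.7 ± 1.93 with shNT, followed by Sufu in all 3 groups. With shNT, Gli2 at 2.17 ± 0.142 CPM per kb stood just above Gli3 at 1.81 ± 0.0877, and their libraries did not overlap. With shRad21_2, Gli3 at 5.50 ± 1.03 stood above Ptch1 at 5.05 ± 1.06 and Gli2 at 4.39 ± 0.597, and the libraries of these neighbours overlapped. With shRad21_1, Boc at 3.18 ± 0.267 and Gli3 at 3.16 ± 0.389 overlapped too. Hhip, between 0.303 and 0.357 CPM per kb, and Gli1, between 0.0409 and 0.0475, were the lowest pair in every group.

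**Figure D4:**
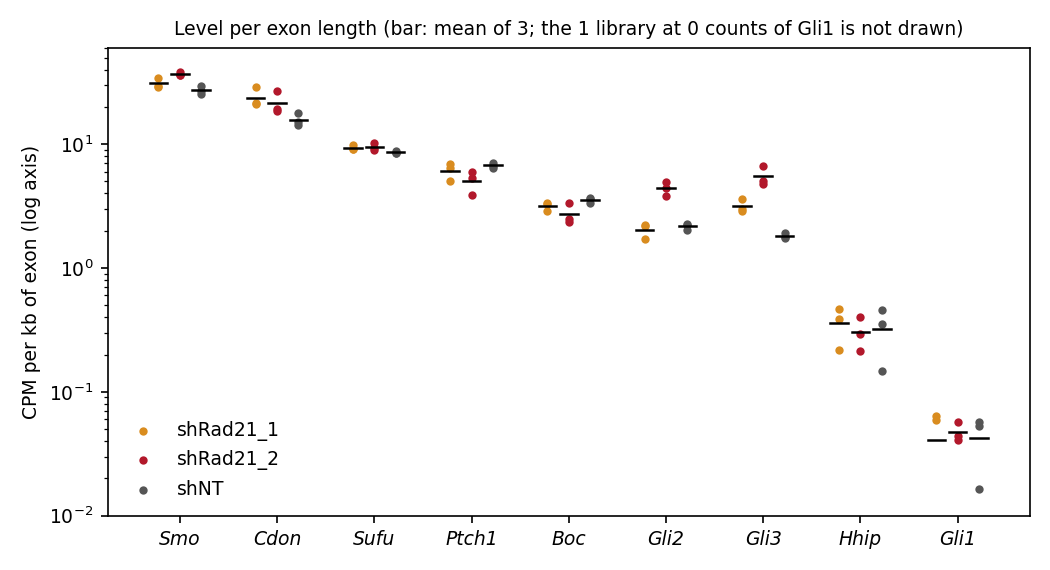
Level of the 9 genes per kilobase of exon (log axis, CPM per kb) in shRad21_1, shRad21_2 and shNT; points are libraries and bars means of 3, and the shRad21_1 library at 0 counts of Gli1 is not drawn. Gli3 moves up past Gli2 in the Rad21 hairpin groups, while Hhip and Gli1 stay at the bottom in all groups.

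The rest of the Hedgehog machinery was read from lists of genes. Of 11 genes for ligands and their release 6 were tested, and 2 fell with shRad21_2 and 1 with shRad21_1, with a median log2 fold change of -0.63 and -0.53. These are 33.3% and 16.7% of the tested members, against 22.5% of all genes lower with shRad21_2 and 9.82% called in either direction with shRad21_1. Disp2, a relative of the ligand-releasing transporter Disp1, fell to 3.68 ± 1.46 CPM with shRad21_1 and 2.45 ± 1.01 CPM with shRad21_2, against 11.1 ± 2.67 CPM with shNT (log2 fold changes -1.59, SE 0.35, and -2.16, SE 0.36). Dhh, the Desert hedgehog ligand, fell by 0.90 with shRad21_2 (SE 0.29, edgeR adjusted p = 0.0285). Shh, the Sonic hedgehog ligand, had 2.78 ± 0.186 CPM with shRad21_1 and 0.870 ± 0.140 CPM with shRad21_2, against 1.77 ± 0.921 CPM with shNT. It was not called against shNT with either hairpin, and was lower with shRad21_2 than with shRad21_1 (-1.67, SE 0.38, adjusted p = 0.0110). Disp2 with shRad21_1 was no longer called when shNT replicate 2 (-1.46) or 3 (-1.51) was left out, at an adjusted p of 0.0876 and 0.0811, and spanned 1.24e-04 to 0.131 in all alternatives. Of the list, 4 fell with shRad21_2 without shRad21_1 replicate 1. Dhh lost its call without shNT replicate 2 (-0.76) or 3 (-0.94) or any shRad21_2 library (-0.86, -0.88 and -0.96), with an adjusted p between 3.93e-04 and 0.103 over 18 alternatives.

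Gas1, a further co-receptor, rose with shRad21_2 much as Gli2 did. It had 507 ± 39.3 CPM with shRad21_2 and 262 ± 8.71 CPM with shNT (log2 fold change 0.95, SE 0.09, edgeR adjusted p = 5.35e-05). With shRad21_1 it had 292 ± 33.0 CPM (0.16, SE 0.09, adjusted p = 0.323), and shRad21_2 lay above shRad21_1 by 0.80 (SE 0.09, adjusted p = 4.39e-04). Both calls held in all 18 alternatives. Lrp2, a large endocytic receptor for ligand, was not called in any comparison.

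Regulators around Smo and PKA went both ways. Of 35 tested, 2 rose and 1 fell with shRad21_1 (5.71% and 2.86%), where 9.82% of all genes tested were called in either direction. With shRad21_2, 12 rose and 9 fell (34.3% and 25.7%, against 21.1% and 22.5% of all genes tested). The median was 0.07 with shRad21_1 and 0.12 with shRad21_2. Adrbk2, which encodes the receptor kinase GRK3, fell to 47.0 ± 14.9 CPM with shRad21_1 and 12.2 ± 1.59 CPM with shRad21_2, against 95.5 ± 5.75 CPM with shNT (-1.02, SE 0.19, and -2.97, SE 0.20). Csnk1e, casein kinase 1 epsilon, rose by 0.49 (SE 0.06) with shRad21_1 and 0.76 (SE 0.07) with shRad21_2. With the close pairs of libraries summed, the shRad21_1 calls of Adrbk2 (-0.88, edgeR adjusted p = 0.115) and Csnk1e (0.51, adjusted p = 0.0620) were lost, within 6.75e-06 to 0.115 and 6.75e-10 to 0.0620 over the alternatives. Prkacb, a catalytic subunit of PKA, fell by 0.58 with shRad21_2 (SE 0.10, edgeR adjusted p = 0.00153). Adcy5, an adenylyl cyclase, rose by 0.67 (SE 0.16) with shRad21_1 and 0.54 (SE 0.16) with shRad21_2. Adcy5 lost its call for shRad21_1 without shNT replicate 2 (0.59) or 3 (0.68) or shRad21_1 replicate 2 (0.60) or 3 (0.66), and its call for shRad21_2 without shNT replicate 2 (0.47) or 3 (0.55) or shRad21_2 replicate 1 (0.45). Over all 18 alternatives the adjusted p of Adcy5 reached 0.234 and 0.0949. Without shNT replicate 2 or 3, 7 regulators rose and 6 fell with shRad21_2, and 1 rose and 1 fell with shRad21_1. Without shRad21_1 replicate 2 or 3, 1 rose and 1 fell with shRad21_1.

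Genes for traffic in the primary cilium, where Smo and the Gli factors meet, were lower with shRad21_2 in a good part of the list. Of 40 tested, 17 fell and 1 rose with shRad21_2 (42.5% lower, against 22.5% of all genes tested; median log2 fold change -0.23 against 0.01). With shRad21_1, edgeR called 0, against 9.82% of all genes tested, with 7 lower at an unadjusted p under 0.05. The DESeq2 Wald test called 3 lower, and edgeR with the replicate number as a block called 1 lower. Tctn2, a protein of the ciliary transition zone, fell by 0.92 (SE 0.12, edgeR adjusted p = 2.34e-04) and Wdr19, of the retrograde transport complex, by 0.68 (SE 0.13). Ttc21b, another subunit of that complex, rose by 0.53 (SE 0.09). Without shNT replicate 2 or 3 the numbers that fell were 9 and 10, and with the close pairs summed 7. Of 4 markers of ependyma, a cell type with many motile cilia, 2 were tested and only Foxj1, a factor that switches on motile cilia genes, was called. Foxj1 fell to 13.9 ± 0.862 CPM with shRad21_1 and 5.57 ± 1.67 CPM with shRad21_2, against 36.3 ± 3.01 CPM with shNT, and made up most of the sum of the list. Rsph1 was not called in any comparison, at 0.384 CPM with shRad21_1 and 0.160 CPM with shRad21_2, against 0.321 CPM with shNT. The 4 markers summed to between 13.6 and 15.5 CPM with shRad21_1 and between 4.34 and 7.55 CPM with shRad21_2, against 33.4 to 39.5 CPM with shNT, with Tmem212 at 0 in all groups and Ccdc153 at 0 with shRad21_2. The part of Foxj1 or of ependyma in the result was not tested, and in bulk RNA fewer cells of a type and less RNA per cell cannot be told apart.

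Genes known to be switched on by Gli activators showed no single direction. Of 14 listed 9 were tested, with Nkx2-1, Nkx6-1, Foxa2, Foxf1 and Fgf15 under the filter. With shRad21_2, 2 rose and 3 fell (22.2% and 33.3%, against 21.1% and 22.5% of all genes tested, median -0.19). With shRad21_1, 1 rose (11.1%, median -0.00), where 9.82% of all genes tested were called in either direction. Nkx2-2, a ventral homeobox gene, fell to 0.679 ± 0.287 CPM with shRad21_2, against 4.02 ± 0.896 CPM with shNT (-2.54, SE 0.34, edgeR adjusted p = 3.27e-04). Nkx6-2 fell by 1.62 (SE 0.38) and Ccnd2, cyclin D2, by 0.27 (SE 0.08), whereas Olig2 rose by 0.33 (SE 0.07) and Bcl2, a survival factor, by 0.69 (SE 0.11). Bcl2 also rose with shRad21_1 (0.40, SE 0.11, adjusted p = 0.0498), a call kept in 7 of 18 alternatives and lost without any shNT library (0.39, 0.39 and 0.41), shRad21_1 replicate 2 (0.36) or 3 (0.40) or shRad21_2 replicate 3 (0.39). Ccnd2 lost its call without shNT replicate 2 or 3 (-0.24 each) or shRad21_2 replicate 1 (-0.26) or 3 (-0.22). Over all 18 alternatives its adjusted p reached 0.143.

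**Figure D5:**
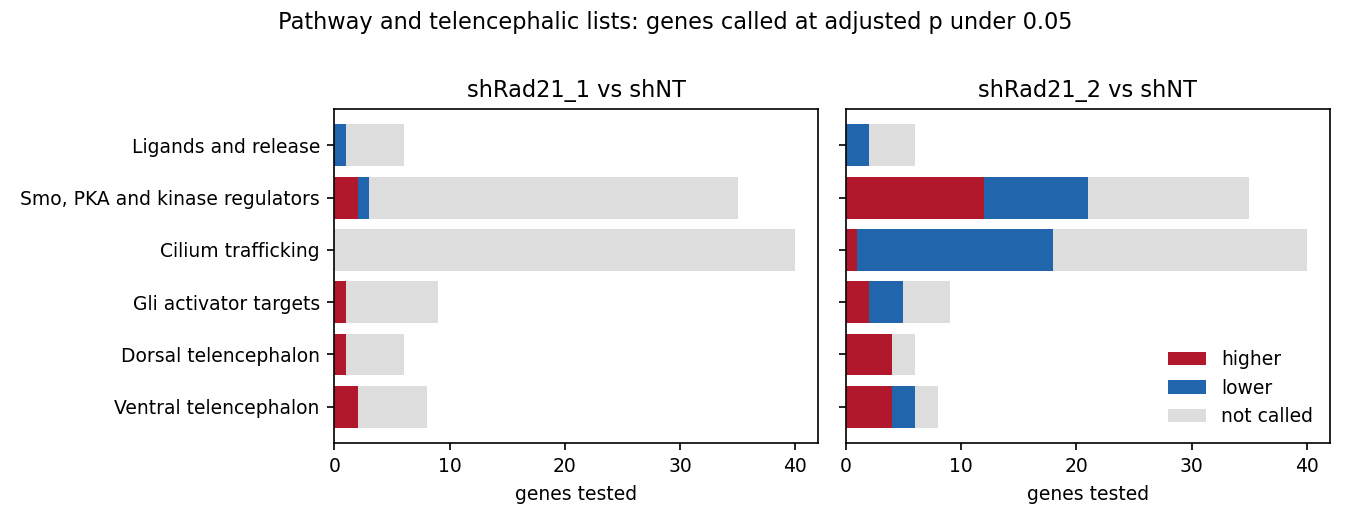
Number of genes tested in 4 lists of the Hedgehog machinery and 2 of telencephalic patterning (x axis) that were higher, lower or not called, for shRad21_1 (left) and shRad21_2 (right) over shNT. The cilium list has 17 lower and 1 higher with shRad21_2 and 0 called with shRad21_1.

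Patterning genes of the telencephalon, which Hedgehog and Gli3 set between them, were called on the dorsal and the ventral side. Of 14 dorsal genes 6 were tested, and 4 rose with shRad21_2 (66.7%, against 21.1% of all genes tested, median log2 fold change 0.43). These were Pax6 (0.50, SE 0.10), Lhx2 (0.68, SE 0.14), Emx2 (0.37, SE 0.13) and Dmrta2 (0.69, SE 0.11). Dmrta2 was the 1 that rose with shRad21_1 (1.15, SE 0.11, edgeR adjusted p = 5.54e-04), or 16.7% of the dorsal genes tested. Of 15 ventral genes 8 were tested, and 4 rose and 2 fell with shRad21_2 (50% and 25%, against 21.1% and 22.5% of all genes tested, median 0.51). Dlx1 (0.61, SE 0.17), Dlx2 (0.88, SE 0.30), Sp8 (0.51, SE 0.14) and Gbx2 (0.52, SE 0.19) rose, and Gsx2 (-2.25, SE 0.44) was among those that fell. With shRad21_1, Dlx1 (0.84, SE 0.17) and Dlx2 (1.37, SE 0.30) rose, or 25% of the ventral genes tested. Of all genes tested, 9.82% were called in either direction with shRad21_1. Pax6, Lhx2, Dmrta2 and Gsx2 kept their calls for shRad21_2 in all 18 alternatives, and Dlx1 did so in 17. The 4 ventral genes that rose numbered 1 without shNT replicate 2 and 2 without shNT replicate 1 or shRad21_1 replicate 2, and also 2 without shRad21_2 replicate 1 or 3. Emx2 kept its call in 10 of 18, Dlx2 in 10, Sp8 in 15 and Gbx2 in 7. Emx2 was at 0.21 without shRad21_2 replicate 1 (edgeR adjusted p = 0.0950, within 0.0203 to 0.137) and Gbx2 at 0.32 without shNT replicate 1 (adjusted p = 0.0963, within 0.0199 to 0.120). Dlx1 and Dlx2 with shRad21_1 kept theirs in 16 and 13.

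Between the hairpins, 31 of the 106 genes of these 7 lists that were tested were called, 11 of them higher with shRad21_2. This is 29.2%, near the 26.3% of all genes tested. Of all 13560 genes tested, 1608 were higher and 1955 lower with shRad21_2 than with shRad21_1. Without shRad21_1 replicate 1 the list genes called numbered 47, without replicate 2 there were 18 and without replicate 3 there were 17. Of the 40 cilium genes tested 9 were lower (22.5%) and 2 higher (5%), Ift57 at 0.47 and Ttc21b at 0.43. The 9 became 4 without shRad21_1 replicate 2, 3 without replicate 3, and 5 without shRad21_2 replicate 1 or 3. Of the 35 regulators around Smo and PKA 6 were higher (17.1%) and 4 lower (11.4%). The 4 were Adrbk2, Prkacb, Csnk1a1 and Stk36, at -1.95, -0.48, -0.30 and -0.69. Of the Gli activator targets, Nkx2-2 (-2.05), Ccnd2 (-0.35) and Sfrp1 (-0.76) were lower with shRad21_2. Of the patterning genes, Pax6 (0.42) and Sp8 (1.01) were higher and Dmrta2 (-0.46), Gsx2 (-1.61) and Sp9 (-1.09) lower. Among these, Nkx2-2, Sp8, Adrbk2 and Ttc21b kept their calls in all 18 alternatives.

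All 7 astrocyte markers were tested, and 5 fell with shRad21_2 (71.4%, against 22.5% of all genes tested). Gja1, the connexin 43 gene, lay the other way without being called, at 152 ± 56.5 CPM with shRad21_1 and 155 ± 13.0 CPM with shRad21_2, against 108 ± 22.3 CPM with shNT (edgeR adjusted p = 0.198 and 0.0869). With shRad21_1, edgeR called 0 of the 7, against 9.82% of all genes tested, with 2 lower at an unadjusted p under 0.05. The summed level of the 7 was between 365 and 491 CPM with shRad21_1 and between 253 and 292 CPM with shRad21_2, against 525 to 557 CPM with shNT. None was at 0 throughout a group, but with shRad21_2 only 4 of the 7 averaged 1 CPM or more. Gfap had 4 counts and Aqp4 9 counts over the 3 shRad21_2 libraries (0.0383 and 0.0779 CPM, against 7.90 and 2.69 CPM with shNT). The lowest sum with shRad21_1 was that of replicate 1. Of 8 oligodendrocyte-lineage markers 6 were tested, and 4 fell and 1 rose with shRad21_2 (66.7% and 16.7%, against 22.5% and 21.1% of all genes tested). With shRad21_1, 1 fell (16.7%), as did 763 of all 13560 genes tested. Between the hairpins, 4 were lower with shRad21_2 (66.7%), as were 1955 of all 13560 genes. Pdgfra, the receptor that marks oligodendrocyte progenitors, fell to 31.2 ± 10.7 CPM with shRad21_1 and 5.20 ± 0.969 CPM with shRad21_2, against 62.3 ± 2.54 CPM with shNT. The sum of the 8 was between 3089 and 3226 CPM with shRad21_1 and between 2694 and 3086 CPM with shRad21_2, against 2750 to 2883 CPM with shNT, with Sox10 and Mog at 0 with shRad21_2. The part of a change in cell types in the values of the 9 genes was not tested.

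The genes whose levels followed each called gene most closely were found by the root mean square difference of log2 CPM, relative to the shNT mean, over the 9 libraries. For Gli3 they were Nespas, Nxn and Otud1, at 0.15, 0.19 and 0.19. Nxn, which encodes nucleoredoxin, had 35.8 ± 6.81 CPM with shRad21_1 and 53.2 ± 1.93 CPM with shRad21_2, against 20.5 ± 1.60 CPM with shNT. For Gli2 they were H1f0, a linker histone gene, Acvr2b, an activin receptor gene, and Pbx3, a homeobox gene, at 0.17, 0.18 and 0.19. Pbx3 had 34.2 ± 8.21 CPM with shRad21_1 and 86.8 ± 2.90 CPM with shRad21_2, against 36.4 ± 1.36 CPM with shNT. For Smo they were Pusl1, Skiv2l2 and Dhx15, each at 0.05. The genes were picked for likeness, so the values are a description with no test.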

How the data were processed

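The authors deposited raw counts per gene symbol for 9 libraries, whole numbers that were not normalised. Per the submitters' processing notes, FastQC, cutadapt, Trim Galore, Bowtie2, RSEM and the build mm10 were used. The sources used here give neither versions nor annotation, strand setting or how RSEM estimates were rounded. Without strand, reads of Gli1, Gli3 and Hhip cannot be told from those of transcripts on the opposite strand that share 327, 188 and 175 exon bases with them in GENCODE M21.

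Counts were fitted with edgeR 4.0.16 in R 4.3.3 (TMM, filterByExpr by group, glmQLFit, 3 group means over all 9 libraries, two-sided glmQLFTest, Benjamini-Hochberg over 13560 genes). The 18 alternatives were DESeq2 1.42.0 (size factors, Wald test), limma 3.58.1 (voom), library totals, other low-count filters, only the groups compared, the replicate block, close pairs of libraries summed, and each library left out. The fit was tested on simulated data. A value of 3 counts corresponds to 0.0643 to 0.0863 CPM per library, and intervals come from the fit. Replicate numbers are shared between groups, and deviations of same-numbered libraries from their group means were correlated over genes. All 3 pairs between shRad21_1 and shNT were over 0.1 (0.24, 0.12 and 0.12), though differently numbered pairs reached 0.16. For that comparison the numbers of genes called with the replicate block are therefore given. The 6 pairs with shRad21_2 lay between 0.02 and 0.09. Those with shNT were 0.06, 0.08 and 0.08, while differently numbered pairs of these groups lay between -0.06 and -0.01. Those with shRad21_1 were 0.09, 0.02 and 0.02, and differently numbered pairs of these groups reached 0.06. Whether shRad21_2 libraries are paired by number with the others is not settled by these values. Positions and exon lengths came from GENCODE M21 and promoter windows from RefSeq.

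The 9 genes, the lists, the alternatives and the rule for named genes were chosen with earlier results of these data known. The rule named the 9 genes, Rad21, the 3 genes of each list with the smallest p for shRad21_2 against shNT, every called gene of a list where 5 or fewer were called in a direction, and the 3 genes most like each called member. Marker genes named were chosen after their values were seen. Results of some genes that the rule names are not reported here.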

Additional observations from a re-analysis of the deposited data

How the results depend on the processing

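Of 18 alternatives, all kept Gli2, Gli3 and Smo higher with shRad21_2 and Gli2 and Gli3 higher with shRad21_2 than with shRad21_1. With shRad21_1 the number of the 9 genes called was 2 by the DESeq2 Wald test, with no low-count filter or with only the groups compared, 0 with close pairs summed, and 1 to 2 with a library left out. With shRad21_2 it was 5 with library totals, limma-voom, no low-count filter, only the groups compared or the replicate block, 6 by the DESeq2 Wald test and 3 to 6 with a library left out (6 without shRad21_1 replicate 1, 5 without shRad21_2 replicate 1).

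The genes called in all with shRad21_1 numbered 1331, against 2042 by the DESeq2 Wald test, 1436 with the replicate block and 130 with close pairs summed. With a library left out they numbered 460 to 1599 (467 and 460 without shNT replicates 2 and 3, 790 and 801 without shRad21_1 replicates 2 and 3). With shRad21_2 they numbered 5917, against 3707 with close pairs summed and 4263 to 6858 with a library left out. Between the hairpins they numbered 3563, against 2233 with only the groups compared, 1270 with close pairs summed and 2045 to 4486 with a library left out (2045 and 2055 without shRad21_1 replicates 2 and 3). With library totals the share of calls that were higher was 38.0% for shRad21_2 (2167 higher, 3541 lower) and 32.2% between the hairpins (1095 and 2310), against 48.4% (2861 and 3056) and 45.1% (1608 and 1955). Genes of the 7 lists called numbered 8 with shRad21_1 (7.55%, against 9.82% of all genes tested). They were 17 by the DESeq2 Wald test, 11 with the replicate block, 1 with close pairs summed and 4 to 11 with a library left out. With shRad21_2 they numbered 57 (53.8%, against 43.6% of all genes tested), 28 with close pairs summed and 35 to 65 with a library left out. Between the hairpins they numbered 31, against 8 with close pairs summed and 17 to 47 with a library left out.

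Signs turned only where a value was not called. For shRad21_1, Hhip ran from -0.19 to 0.50, Gli1 from -0.53 to 0.50 and Gli2 from -0.15 to 0.018 with a library left out. For shRad21_2, Hhip was 0.084 with close pairs summed and ran from -0.44 to 0.26, and Gli1 from -0.21 to 0.39. Between the hairpins, Sufu was -0.043 with library totals, -0.0026 with close pairs summed and from -0.041 to 0.058 with a library left out, Cdon ran from -0.33 to 0.022, Hhip from -0.51 to 0.0082 and Gli1 from -0.37 to 0.67. The cause was not tested. With the replicate block, no call of the 9 genes changed for shRad21_1 against shNT, and no named list gene lost its call. The list genes called in this comparison numbered 11 with the block, against 8 without it. Whether named list genes were among those that gained a call was not tested. In the comparisons with shRad21_2, where a pairing by number is not settled, the block moved the calls of the 9 genes as above. Boc was at -0.40 and Ptch1 at -0.43 for shRad21_2 (edgeR adjusted p = 0.0460 and 0.0361). Smo was at 0.25 between the hairpins (edgeR adjusted p = 0.0473). Counts of Gli1, 0 to 12 per library, set the limit of depth among the 9 genes. Hhip had 49 to 189 counts per library and varied within groups, with an SD of 1.44 on a mean of 2.92 CPM with shNT.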

Other observations

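The 3 genes that the pathway itself induces, Ptch1, Hhip and Gli1, were lowest in replicate 1 within shRad21_1 and within shNT. With shRad21_1, replicate 1 had 71.4 CPM of Ptch1, 1.96 CPM of Hhip and 0 counts of Gli1, against 97.1 and 91.4 CPM, 4.27 and 3.48 CPM and 11 and 12 counts in replicates 2 and 3. With shNT, replicate 1 had 91.2 CPM, 1.35 CPM and 3 counts, against 100.4 and 95.0 CPM, 3.21 and 4.19 CPM and 12 and 12 counts. With shRad21_2 the order was mixed, replicate 1 being lowest for Hhip alone. Replicates 2 and 3 are the close pairs of these groups, and the pattern was noticed after the values were seen.

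Neighbours of the called genes within 500 kb, by GENCODE positions, did not all move their way. Gli3 had 0 tested neighbours. Of the 6 of Gli2, Clasp1 rose (0.33) and Inhbb (-1.38) and Ralb (-0.48) fell with shRad21_2. Of the 14 of Smo, 4 rose and 4 fell with shRad21_2, against 21.1% higher and 22.5% lower among all genes tested. One that fell was Ahcyl2, 6.6 kb away, which fell by 0.70 with shRad21_2 and by 0.39 with shRad21_1. These genes were chosen for their position, after values were seen.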
